A study of Homo sapiens with 12 samples.

Results

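Gene-end PRC1 sites lacking YTHDF1 are places in human embryonic stem cells where Polycomb repressive complex 1 sits at the end of a gene without a called YTHDF1 peak on top of it. They were selected on measured values: an RNF2 peak narrower than 10 kb, with its midpoint within 2 kb of either end of a protein-coding gene, had to overlap an H2AK119ub island and no wild-type YTHDF1 peak, each by 1 bp or more. There were 8545 such sites, 29.2% of all 29310 RNF2 peaks. The sites set beside them are the 2983 that met every other criterion but overlapped a YTHDF1 peak. The data are ChIP-seq peak lists from H1, a long-established line of human embryonic stem cells, grown in mTESR1. The groups were YTHDF1 and input in H1 cells treated with YTHDF1 shRNA, which knocks YTHDF1 down, and YTHDF1, RNF2, H2AK119ub and input in untreated wild-type H1 cells. The 12 libraries made 6 groups of 2 replicates, and the authors merged the replicates into 1 peak list per antibody and condition. No spread between replicates exists in these lists, no test was run, and read depth is unknown.

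Polycomb repressive complex 1 (PRC1) is a ubiquitin ligase for histone H2A. RNF2, also called RING1B, is its catalytic subunit, and H2AK119ub is the product that it leaves on chromatin. In embryonic stem cells the complex is best known for holding developmental genes silent at promoters that are rich in CpG dinucleotides, which a variant form of PRC1 recognises through its KDM2B subunit. YTHDF1 binds messenger RNA that carries N6-methyladenosine (m6A) and is best known from the cytoplasm; a ChIP peak of such a protein marks chromatin to which it was crosslinked, directly or through partners.

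The sequences that carry the description are the promoters of the strongest of these sites, since the lists hold no sequence themselves. A RefSeq promoter table of GRCh38.p14 gave starts and strands for 15842 of the 20037 coding genes. The 250 bases before the start are shown 5′ to 3′ for 8 genes, those with the highest RNF2 fold enrichment among the 10 strongest members and the leading genes of the lists below that had an entry and a start inside the RNF2 peak, with each CG dinucleotide in capitals. FOXQ1 lies at chr6:1311848-1312097 on the plus strand, FOXD4L1 at chr2:113498415-113498664 plus, LOC124908046 at chr2:113542509-113542758 minus, TP73 at chr1:3652266-3652515 plus, DSC3 at chr18:31042743-31042992 minus, SHISA3 at chr4:42397238-42397487 plus, WNT3A at chr1:228006748-228006997 plus and GREM1 at chr15:32717754-32718003 plus.
FOXQ1: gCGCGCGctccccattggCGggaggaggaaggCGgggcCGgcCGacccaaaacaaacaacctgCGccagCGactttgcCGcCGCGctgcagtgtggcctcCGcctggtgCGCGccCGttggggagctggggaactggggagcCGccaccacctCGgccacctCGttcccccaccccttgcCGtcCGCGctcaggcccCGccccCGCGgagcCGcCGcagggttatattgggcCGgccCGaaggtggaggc
FOXD4L1: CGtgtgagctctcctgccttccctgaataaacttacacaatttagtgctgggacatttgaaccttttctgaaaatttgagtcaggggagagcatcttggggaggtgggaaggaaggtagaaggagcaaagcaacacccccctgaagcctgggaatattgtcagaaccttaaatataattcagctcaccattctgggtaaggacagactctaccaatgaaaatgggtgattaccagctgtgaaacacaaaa
LOC124908046: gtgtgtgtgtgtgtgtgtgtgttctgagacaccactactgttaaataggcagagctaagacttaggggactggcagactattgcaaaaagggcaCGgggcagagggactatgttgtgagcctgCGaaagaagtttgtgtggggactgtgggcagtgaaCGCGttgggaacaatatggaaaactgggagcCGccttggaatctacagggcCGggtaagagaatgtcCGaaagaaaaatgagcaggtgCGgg
TP73: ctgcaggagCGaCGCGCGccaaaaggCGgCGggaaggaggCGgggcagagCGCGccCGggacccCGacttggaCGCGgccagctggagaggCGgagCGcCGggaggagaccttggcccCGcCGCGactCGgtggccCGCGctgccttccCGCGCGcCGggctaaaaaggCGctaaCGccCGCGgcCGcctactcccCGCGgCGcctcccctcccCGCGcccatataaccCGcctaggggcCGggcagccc
DSC3: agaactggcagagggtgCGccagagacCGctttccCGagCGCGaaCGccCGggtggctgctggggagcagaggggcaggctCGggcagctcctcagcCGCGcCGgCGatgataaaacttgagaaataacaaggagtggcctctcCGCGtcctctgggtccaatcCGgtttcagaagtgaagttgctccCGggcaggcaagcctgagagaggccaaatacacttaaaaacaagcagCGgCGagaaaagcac
SHISA3: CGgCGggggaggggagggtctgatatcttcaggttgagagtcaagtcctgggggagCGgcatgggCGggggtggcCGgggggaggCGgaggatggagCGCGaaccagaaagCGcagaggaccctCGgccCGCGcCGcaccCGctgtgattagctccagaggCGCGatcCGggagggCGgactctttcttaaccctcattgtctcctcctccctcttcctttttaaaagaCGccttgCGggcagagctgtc
WNT3A: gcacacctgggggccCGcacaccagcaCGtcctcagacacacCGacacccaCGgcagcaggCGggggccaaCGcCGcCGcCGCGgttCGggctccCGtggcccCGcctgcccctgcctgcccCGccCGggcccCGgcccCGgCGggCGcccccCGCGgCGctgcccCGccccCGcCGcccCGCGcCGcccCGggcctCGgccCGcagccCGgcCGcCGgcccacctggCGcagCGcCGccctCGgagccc
GREM1: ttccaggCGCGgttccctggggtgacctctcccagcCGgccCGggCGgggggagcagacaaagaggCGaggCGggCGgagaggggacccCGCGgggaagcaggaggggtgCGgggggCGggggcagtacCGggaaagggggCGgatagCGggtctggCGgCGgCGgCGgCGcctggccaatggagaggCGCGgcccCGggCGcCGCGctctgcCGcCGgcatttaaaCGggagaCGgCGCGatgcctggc
The TP73 and WNT3A stretches each held 38 CG dinucleotides, GREM1 32, FOXQ1 29, SHISA3 20 and DSC3 18, while FOXD4L1 held 1. LOC124908046 held 8, and 51.6% of its bases were G or C. G and C made up 86% of the WNT3A bases, 77.2% at TP73 and 44.8% at FOXD4L1. Observed over expected CpG, which is 1 where CG occurs as often as its base composition alone would give, was 1.02 at TP73, 0.849 at FOXQ1 and 0.0804 at FOXD4L1. FOXD4L1 was the sole stretch nearly free of CG, and most of that stretch lies outside its RNF2 peak, which begins at base 113498574. The RNF2 values of FOXD4L1 and LOC124908046 are uncertain, since both lie in near-identical copies.

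The members were reached in steps that each kept a stated share. Of the 29310 RNF2 peaks, 28599 (97.6%) were narrower than 10 kb. Of those, 12184 (42.6%) had their midpoint within 2 kb of a coding-gene end. H2AK119ub lay on 11528 of these (94.6%, exact binomial 95% interval 94.2 to 95.0%), and 8545 of the 11528 (74.1%, 73.3 to 74.9%) lacked YTHDF1. Intervals here and throughout are Clopper-Pearson intervals that cover counting error only. The share lacking YTHDF1 was 74.1% at the gene-end PRC1 sites, against 87.8% at the 12709 RNF2 peaks under 10 kb that lay on H2AK119ub away from gene ends and 47.5% (43.8 to 51.3%) at the 711 RNF2 peaks of 10 kb or more on H2AK119ub. Among the 656 gene-end RNF2 peaks under 10 kb without the mark it was 87.7% (84.9 to 90.1%). Over all 29310 RNF2 peaks it was 82.6%, above the share at the gene-end PRC1 sites. The YTHDF1 list reached down to a −log10 q of 1.50, while the RNF2 list began at 4.01. With YTHDF1 peaks of a −log10 q of at least 4 alone, 97.4% of gene-end PRC1 sites lacked YTHDF1, so most of the sites counted as carrying YTHDF1 did so through a peak below that value.

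RNF2 was somewhat weaker and narrower at the members. The median fold enrichment over background, the authors' value for each peak, was 4.45 (quartiles 3.47 and 5.93) at sites lacking YTHDF1 and 4.98 (3.87 and 6.63) at sites with YTHDF1. It was 3.74 over all RNF2 peaks and 3.30 at gene-end peaks without H2AK119ub. Median width was 1664 bp (1090 to 2578) at sites lacking YTHDF1, against 2048 bp (1390 to 3150) at sites with it. Peaks narrower than 1 kb made up 21.1% of the sites lacking YTHDF1 and 10.2% of those with it, and peaks of 5 kb or more 5.23% and 8.51% of the same classes. Strong sites were not missing: 457 members (5.35%, 4.88 to 5.85%) reached 10-fold, against 191 sites with YTHDF1 (6.40%, 5.55 to 7.34%). The highest fold was 72.1 among the members and 93.5 among sites with YTHDF1. These values come from the lists that chose the sites and are given without a test.

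**Figure D1:**
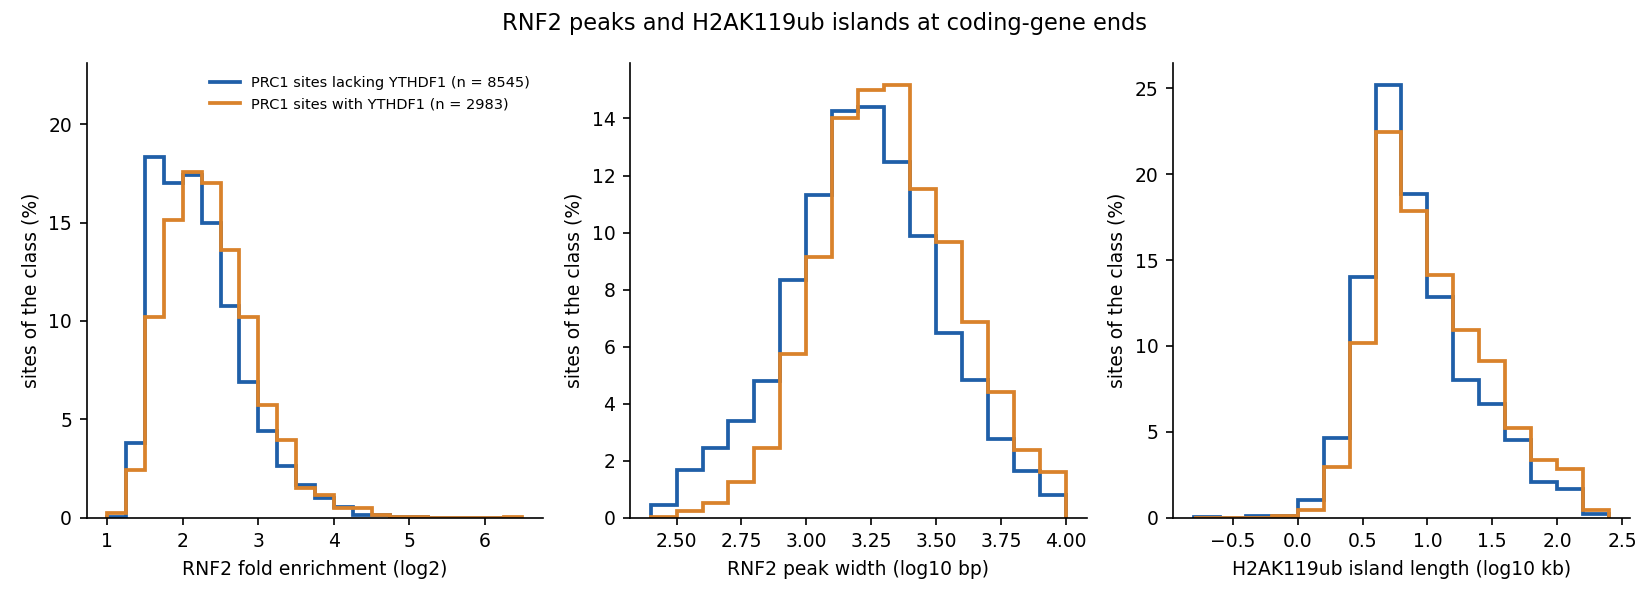
Distribution of RNF2 fold enrichment (log2), RNF2 peak width (log10 bp) and H2AK119ub island length (log10 kb) over the 8545 gene-end PRC1 sites lacking YTHDF1 (blue) and the 2983 with it (orange), as percent of each class. The 2 classes overlap over nearly the whole range, and the blue curves lie to the left, with medians of 4.45 against 4.98 for fold and 1664 against 2048 bp for width.

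The share of sites without YTHDF1 was lower where RNF2 was stronger. In 4 equal groups of the 11528 gene-end PRC1 sites ordered by RNF2 fold, it was 82.1%, 75.1%, 71.5% and 67.7%. Peak width ran with fold (Spearman 0.665 over the 8545 members, a description across sites of the same libraries). In 4 groups by width the share was 83.9%, 74.5%, 71.4% and 66.8%. Within the narrowest group the share lacking YTHDF1 was 80.3% in the stronger 50% of sites and 87.4% in the weaker 50%. Within the widest group those shares were 67.2% and 66.4%, with intervals that overlapped. The part of width in these shares was not tested.

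H2AK119ub islands extended well past most members. The island under a site had a median length of 7.0 kb (quartiles 4.4 and 14.6) where YTHDF1 was lacking, against 8.8 kb (5.0 and 21) where it was present. The RNF2 peak lay wholly inside its island at 7591 members (88.8%), against 91.8% of sites with YTHDF1. The deposited island score, capped at 1000, stood at the cap for 28.1% of members and 38.6% of sites with YTHDF1. Island length hardly followed RNF2 strength among the members (Spearman 0.109), and the median island was 6.6, 6, 6.6 and 8.4 kb in 4 equal groups of members by rising fold. The 8545 members stood in 7418 islands: 6601 islands held 1 member, 644 held 2, and 173 held 3 or more, with 656 members among them. The most in any island was 9, found in 3 islands. Of these, the island at chr16:621201-753400 (132.2 kb) took in members at RHOT2, WDR90, WFIKKN1 and FBXL16 among other genes, and the island at chr16:1889401-2051800 (162.4 kb) members at NDUFB10, NTHL1, SYNGR3 and TBL3. The longest island of all, 213.2 kb on chromosome 11, held members at MACROD1 (4.86-fold), OTUB1 (4.79-fold) and COX8A (3.30-fold). Members at SREBF1 (7.20-fold) and NECTIN1 (5.59-fold) stood in islands of 201.8 and 190.8 kb.

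The nearest YTHDF1 peak lay at a median gap of 15.1 kb (quartiles 5.97 and 33.5 kb) from a member, against 15.0 kb (5.90 and 33.5 kb) over all 24219 RNF2 peaks lacking YTHDF1, so the distance was not particular to the members. It lay within 2 kb of 820 members (9.60%) and within 10 kb of 37.8%, and over 50 kb from 14.9%. At 2113 members (24.7%, 23.8 to 25.7%) the same H2AK119ub island overlapped a YTHDF1 peak elsewhere along its length. The closest misses were ADGRD2, an adhesion G protein-coupled receptor gene, with a gap of 3 bp, ZNF362 with 6 bp, BCR with 10 bp, NAT8L with 13 bp and CCDC33 with 16 bp. The smallest overlaps that kept a site out were 6 bp at ZFTRAF1, 7 bp at UNC13A, 23 bp at ADGRE2, 23 bp at API5 and 35 bp at ARC. The other limits were as sharp. SHISA3 (9984 bp), COL12A1 (9837 bp) and FOXQ1 (9821 bp) were the widest members, and GCM2 (10081 bp), PNMA8B (10115 bp) and GPR4 (10199 bp) the narrowest peaks left out for width. FBLIM1, ZNF521 and IGSF22 were members with a midpoint 1999.5 bp from an end, and RNF2 peaks near STBD1, KCNJ11 and BCAT1 stood outside at 2002.5 bp. KCNJ11 and BCAT1 each had another RNF2 peak that was a member (6.81-fold and 3.20-fold), as had UNC13A and ARC. The lowest −log10 p among members belonged to PRKCH, AFAP1L1, DGKA, TRNP1 and EFCAB12, with RNF2 folds of 2.75 to 2.82.

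The 10 strongest members were ordered by the RNF2 −log10 p. FOXD4, a forkhead transcription factor gene, had a 72.1-fold RNF2 peak at chr9:111855-118413 that covered most of the gene (116231 to 118417), and its relative FOXD4L1 had 34.1-fold at chr2:113498574-113504772. FRG2C had 47.5-fold at chr3:75664818-75672902, LOC124908046 33.9-fold and LOC124902106 26.6-fold. These 5 belong to families or chromosome segments with near-identical copies elsewhere, how reads that match several copies were placed is not given in the sources used here, and their values are uncertain. Among the other 5, FOXQ1, a forkhead factor of epithelial cells, had a 42.9-fold RNF2 peak at chr6:1307192-1317012, with its midpoint 4 bp from the gene start. TP73, a member of the p53 family, had a 30.9-fold peak of 8.17 kb over its start. NEFH, the neurofilament heavy chain of axons, had 29.9-fold over 5.29 kb. DSC3, a desmosomal cadherin of stratified epithelia, had 26.6-fold over 8.58 kb, and SHISA3, of a family known in frog for damping Wnt and FGF signals, 26.2-fold over 9.98 kb. The nearest YTHDF1 peak was 6.61 kb from the TP73 peak, 16.1 kb from SHISA3, 49.3 kb from FOXQ1, 73.1 kb from DSC3 and 88.8 kb from NEFH. H2AK119ub covered 100% of the RNF2 peak at TP73 and NEFH, 97.9% at FOXQ1, 95.8% at SHISA3 and 67.6% at DSC3.

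Most members sat on gene starts, which the selection had not asked for, since it took either end. At 6640 members every coding gene with an end within 2 kb had a known strand, and shares by nearest end below use such sites alone. Of these 6640, 5395 (81.25%, 80.3 to 82.2%) had an annotated start inside the RNF2 peak. This share was 89.7% (88.4 to 90.9%) of 2322 sites with YTHDF1 and 76.6% (72.9 to 80.1%) of gene-end peaks without H2AK119ub. Members were also the narrower peaks, as given above, and the part of width in this difference was not tested. By distance alone the classes were closer: the nearest end was a start at 90.6% (89.9 to 91.3%) of members and 92.7% (91.6 to 93.7%) of sites with YTHDF1. The nearest end was a 3′ end at 622 members (9.37%), against 169 sites with YTHDF1 (7.28%). Over 5587 members with a start inside the peak, which counts a start of any coding gene, the RNF2 summit lay at a median of 11 bp after the start (quartiles −138 and 176), and within 250 bp of it in 69.2%. For 2171 sites with YTHDF1 the median was −9 bp, and 64.6% were within 250 bp. Starts on both strands lay inside 552 of the 5587 members (9.88%, 9.11 to 10.7%), against 263 of 2171 sites with YTHDF1 (12.1%, 10.8 to 13.6%). Genes that started inside a member had a median length of 31.5 kb, against 28.1 kb for starts inside sites with YTHDF1 and 25.6 kb over all coding genes with a promoter entry.

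**Figure D2:**
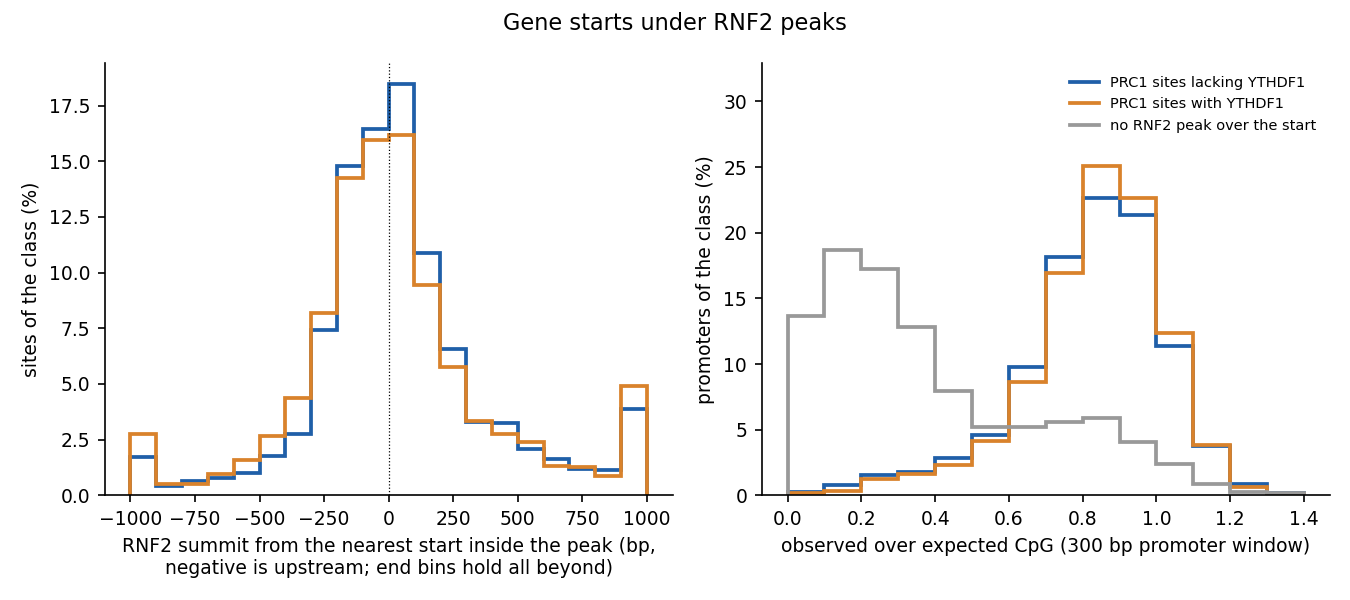
Left, distance of the RNF2 summit from the nearest gene start inside the peak (bp, negative is upstream, end bins hold everything beyond), as percent of 5587 sites lacking YTHDF1 (blue) and 2171 with it (orange). Right, observed over expected CpG in 300 bp promoter windows under the 2 classes and under no RNF2 peak (grey): both PRC1 classes peak between 0.8 and 0.9, with medians of 0.847 and 0.861, and the grey curve below 0.3.

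Promoters under the members were rich in CpG. A window of 300 bp (250 before and 50 after the start) was called rich when observed over expected CpG was at least 0.6 and GC at least 55%. By this measure 6280 of 7569 promoters under members (83.0%, 82.1 to 83.8%) were rich, against 87.5% (86.3 to 88.7%) under sites with YTHDF1. The shares were 56.7% over all 22175 coding promoters and 18.7% under no RNF2 peak. Under RNF2 peaks of 10 kb or more 455 of 666 promoters were rich (68.3%). Median observed over expected CpG was 0.847 under members and 0.861 under sites with YTHDF1, and median GC was 67.3% and 69.3%. Of the 5587 members over a start, 4895 covered at least 1 CpG-rich promoter and had a median RNF2 fold of 4.77. The other 692, FOXD4L1 and LOC124908046 among them, had a median of 4.15. Along the whole class RNF2 fold barely ran with observed over expected CpG (Spearman 0.0665).

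Known promoter words were counted on both strands of the same windows as a description. The GC box GGGCGG, a word for SP and KLF factors, stood in 75.6% of promoters under members, 81.1% under sites with YTHDF1 and 56.3% of all coding promoters. The ETS word CCGGAAG stood in 17.0%, 15.7% and 12.8% of the same classes. The YY1 word AANATGGCG stood in 6.01%, 5.75% and 4.24%, the E2F word GGCGGGAA, which overlaps the GC box where a G precedes it, in 5.64%, 6.54% and 3.98%, and the NRF1 word GCGCATGCG in 3.40%, 3.95% and 2.36%. The E-box CACGTG, the core that MAX and MGA recognise, stood in 10.7% under members, 10.7% under sites with YTHDF1 and 8.34% of all. The cyclic AMP response word TGACGTCA had 2.97%, 3.16% and 2.26%, and the CCAAT box 32.9%, 34.9% and 34.7%. The T-box word AGGTGTGA had 0.700%, 0.427% and 0.929%. The TATA box TATAAA was less common under members (4.64%) and sites with YTHDF1 (3.42%) than over all promoters (9.47%). Between 40 and 20 bases before the start, on the gene's own strand, it stood in 1.70%, 1.35% and 3.01% of these classes.

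Counted by genes, the sites lacking YTHDF1 touched a large part of the coding genome. A member lay at an end of 8988 of 20037 coding genes (44.9%), a site with YTHDF1 at 3531 (17.6%), and an RNF2 peak of 10 kb or more at 743 (3.71%). Both kinds of narrower site lay at 699 genes, and 649 genes had different members at their opposite ends. Of the genes with a known start, 6184 began inside a member, 2473 inside a site with YTHDF1, and 29 had starts in both. These percentages are the background against which the 24 gene lists below are read, and a list's share near 44.9% says nothing particular about it. The lists carry no test.

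Developmental transcription factors were mostly absent from the members and stood under RNF2 peaks of 10 kb or more, which the selection leaves out. All 39 HOX genes and all 28 neural developmental factors had a peak of 10 kb or more at an end, beside a background of 3.71%. No HOX gene and 1 neural factor had a member: LHX2, a LIM homeobox gene of forebrain and eye, with 8.41-fold RNF2 at its 3′ end. Of 26 mesoderm factors 17 had a broad peak, and 9 had a member, among them the muscle regulator MYOD1 at 14.6-fold, the somite homeobox gene MEOX2 at 8.08-fold and the primitive-streak homeobox gene MIXL1 at 6.03-fold. None of the 26 had a site with YTHDF1. GATA4, TBX5 and WT1 had a broad peak and also a member, of 3.29-fold, 2.95-fold and 2.92-fold. MEF2C, MEOX1 and MSGN1 had none of these sites. Of 20 endoderm factors 16 had a broad peak and 2 a member, FOXA3 at 6.45-fold over its start and GATA6 at 3.50-fold at its 3′ end. GATA6 had a broad peak as well. The nearest YTHDF1 peak lay 52.5 kb from the MYOD1 site, 229 kb from MEOX2, 24.2 kb from MIXL1 and 1.01 kb from FOXA3.

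Secreted signalling genes were more evenly divided, and here members could be strong. Of 31 such genes 12 had a member (38.7%), 6 a site with YTHDF1 and 9 a broad peak. WNT3A, a Wnt ligand, had 23.8-fold RNF2 over 8.23 kb at chr1:228003513-228011739, and a broad peak at an end as well. GREM1, a secreted antagonist of bone morphogenetic proteins, had 21.1-fold over 9.03 kb at chr15:32714315-32723341. SFRP1, a secreted Wnt antagonist, had 15.8-fold and NOG, another antagonist of bone morphogenetic proteins, 15.7-fold. FGF4 had 10.05-fold, BMP2 8.08-fold, WNT3 6.77-fold, the Nodal antagonist CER1 6.47-fold and its functional relative LEFTY2 4.20-fold. CHRD, DKK1, FGF2, FZD8, SFRP5 and WNT7A were the 6 with YTHDF1. FZD8, though counted in this list, encodes a Wnt receptor of the cell surface and not a secreted factor. The promoters of WNT3A and GREM1 are the most CG-rich of those printed above besides TP73.

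Among 28 pluripotency-associated genes, 8 had a member (28.6%, beside 44.9% of all coding genes) and 7 a site with YTHDF1 (25%, beside 17.6%). A broad peak stood at 3, and 11, the largest group, had none of these, POU5F1 and NANOG among them. Members lay at PRDM14 (7.77-fold), SOX2 (6.56-fold over its start, in an island of 46.8 kb) and TFCP2L1 (6.25-fold), all transcriptional regulators of the pluripotent state. SOX2 had a broad peak as well. Members lay also at ZFP42 (5.31-fold), MYCN (4.67-fold), LIN28A (4.03-fold) and JADE1 (3.34-fold). DNMT3B, ETV4, KLF2, KLF4, TERT, TRIM71 and UTF1 had sites with YTHDF1. Genes of differentiated tissues had few of either kind: 7 of 35 had a member (20%), 1 a site with YTHDF1. The skeletal muscle actin gene ACTA1 had a 14.9-fold peak of 6.99 kb, HBA1 shared a 9.09-fold site with its near-identical copy HBA2, so that the reads of either cannot be told apart with certainty, and APOB had 6.46-fold. Olfactory receptor genes had 2 members in 390 (0.513%), OR1F1 and OR2V2, and 2 sites with YTHDF1 (0.513%).

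The genes of the PRC1 and PRC2 machinery had members at about the background rate. Of 30 PRC1 subunit genes 15 had a member (50%), 5 a site with YTHDF1 and 10 a broad peak, which 3.71% of all coding genes had. KDM2B, PCGF5 and PHC1 had none of these, and CBX2 had both a site with YTHDF1 and a broad peak. The highest folds stood at E2F6 (17.8-fold over 1.88 kb) and MGA (16.7-fold over 3.10 kb), which encode DNA-binding subunits of the variant complex PRC1.6. RYBP, a subunit of variant PRC1, had 12.9-fold, with the start just outside the peak, PCGF2 9.42-fold and CBX7 7.88-fold. RNF2 itself had a 7.66-fold peak of 3.81 kb over its start at chr1:185044276-185048083, in an H2AK119ub island of 6.0 kb, with the nearest YTHDF1 peak 31.3 kb away. RING1, the paralogue of RNF2, had a member (6.45-fold), a site with YTHDF1 and a broad peak. Of 13 PRC2 subunit genes 6 had a member (46.2%): EZH1 10.7-fold and EZH2 5.65-fold, the alternative methyltransferases of the complex, PHF1 5.08-fold at its 3′ end, EED 4.90-fold, LCOR 4.52-fold and RBBP7 3.71-fold. JARID2, RBBP4 and PHF1 had sites with YTHDF1.

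The m6A genes stood on both sides. Of 21 writer, eraser and reader genes 9 had a member (42.9%) and 6 a site with YTHDF1 (28.6%). Members lay at RBM15, a subunit of the writer complex (5.75-fold), at IGF2BP2 (5.47-fold), IGF2BP1 (4.82-fold) and IGF2BP3 (3.60-fold), readers that bind methylated messages, and at METTL3, the catalytic writer (3.92-fold). YTHDF2 (4.72-fold) and YTHDF3 (3.55-fold), the paralogues of YTHDF1, had members too, as had YTHDC2 (3.57-fold) and HNRNPC (4.33-fold). The gene of YTHDF1 itself had a site with YTHDF1 and was no member, together with FTO, ALKBH5, WTAP, RBM15B and HNRNPA2B1. Of 10 genes of H2A deubiquitinases and their partners 3 had a member: BAP1 (6.59-fold), USP21 (5.25-fold at its 3′ end) and ASXL2 (4.42-fold). The BAP1 site lay nearer to an end of PHF7 (232 bp) than of BAP1 (884 bp), and the USP21 site was shared with PPOX. ASXL1, ASXL3 and USP22 were the 3 that had a site with YTHDF1.

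Housekeeping genes had members about as often as other genes, mostly with low RNF2 folds. Of 83 cytosolic ribosomal protein genes 43 had a member (51.8%) and 12 a site with YTHDF1 (14.5%), and none a broad peak. The median RNF2 fold of those 43 was 3.60, against 4.45 over all members, and RPL31 (8.40-fold), RPS13 (6.59-fold) and RPL15 (6.48-fold) were the highest. Of 77 mitochondrial ribosomal protein genes 42 had a member (54.5%) and 3 a site with YTHDF1 (3.90%, beside the 17.6% of all coding genes). Their median fold was 3.86, with MRPL36 at 7.94, MRPL40 at 6.88 and MRPL17 at 6.25, and MRPL36 shared its site with NDUFS6. Proteasome genes had 17 of 39 (PSMD7 at 11.9-fold, PSMA1 8.85, PSMD9 7.48), complex I genes 16 of 37 (NDUFS6 7.94, NDUFV1 4.66, NDUFB10 4.25) and aminoacyl-tRNA synthetase genes 20 of 35 (MARS2 7.09, VARS1 6.05, SARS2 5.73). Spliceosome genes had 13 of 33 with a member, LSM2 at 6.05-fold at its 3′ end in a site shared with VARS1, SF3B1 at 4.82 and SF3B5 at 4.45. They had 12 of 33 with a site with YTHDF1 (36.4%).

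Genes of genome copying and repair stood highest among the lists by share. Of 25 homologous recombination and Fanconi anaemia genes 18 had a member (72%), 4 a site with YTHDF1 and none a broad peak. RAD50, of the complex that senses DNA ends, had 6.99-fold RNF2 over 1.42 kb, the strand-exchange gene XRCC2 6.55-fold over 0.923 kb and the Fanconi core gene FANCG 6.41-fold over 1.09 kb. The median over the 18 was 4.76-fold. Of 22 minichromosome maintenance and origin recognition genes 13 had a member (59.1%) and 2 a site with YTHDF1. This list also holds GINS genes, CDC45, CDC6 and CDT1. GINS2 had 8.04-fold RNF2, the helicase subunit MCM6 7.94-fold and GINS4 5.19-fold. The other 7 genes had neither kind of site and no broad peak: MCM3 and all the origin recognition genes, ORC1 to ORC6.

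Germline genes had a higher median fold than each other list with more than 1 member. The list holds mainly genes of meiosis and of the piRNA pathway, of the kind that PRC1.6 silences in mouse embryonic stem cells. Of 22 genes 12 had a member (54.5%, beside 44.9% of all coding genes), none a site with YTHDF1 and none a broad peak. The other 10 had none of these, DAZL, DDX4, HORMAD1 and SYCP3 among them, and do not enter the median. The median fold of the 12 was 7.92, against 4.45 over all members. STAG3 and SMC1B, meiotic cohesin subunits, had 13.4-fold and 13.2-fold over their starts, MEI1, a meiosis gene, 12.5-fold over 1.33 kb, the lipoxygenase gene ALOX15 11.8-fold, ZCWPW1 11.7-fold and MOV10L1, a piRNA pathway helicase, 8.46-fold. The weakest were TEX14 at 3.22-fold and SYCP1 at 3.96-fold. RAD51C, counted among the homologous recombination genes, had the same fold and width (0.964 kb) on the same chromosome as TEX14, so these genes appear to share a site.

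Large gene families followed the background or shared their sites. Zinc-finger genes with ZNF numbers had members at 227 of 509 (44.6%, as in all coding genes) and sites with YTHDF1 at 73 (14.3%). The members were led by ZNF800 (13.2-fold over 6.96 kb), ZNF467 (12.2-fold, with a broad peak as well) and ZNF785 (12.1-fold). Potassium channel genes had members at 50 of 95 (52.6%), with a median fold of 6.79, and sites with YTHDF1 at 19. The voltage-gated channel genes KCNA1 (17.8-fold over 5.70 kb), KCNG1 (14.8-fold) and KCNA3 (14.0-fold) led them. Clustered protocadherin genes, which encode neuronal adhesion molecules, had members at 26 of 53 and no site with YTHDF1. Those 26 genes shared 10 sites, since the gamma genes have a common 3′ end with a 3.52-fold peak, and 11 genes had a start of their own inside a member, such as PCDHGC3 (7.58-fold), PCDHAC2 (6.29-fold) and PCDHGC4 (5.002-fold).

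**Figure D3:**
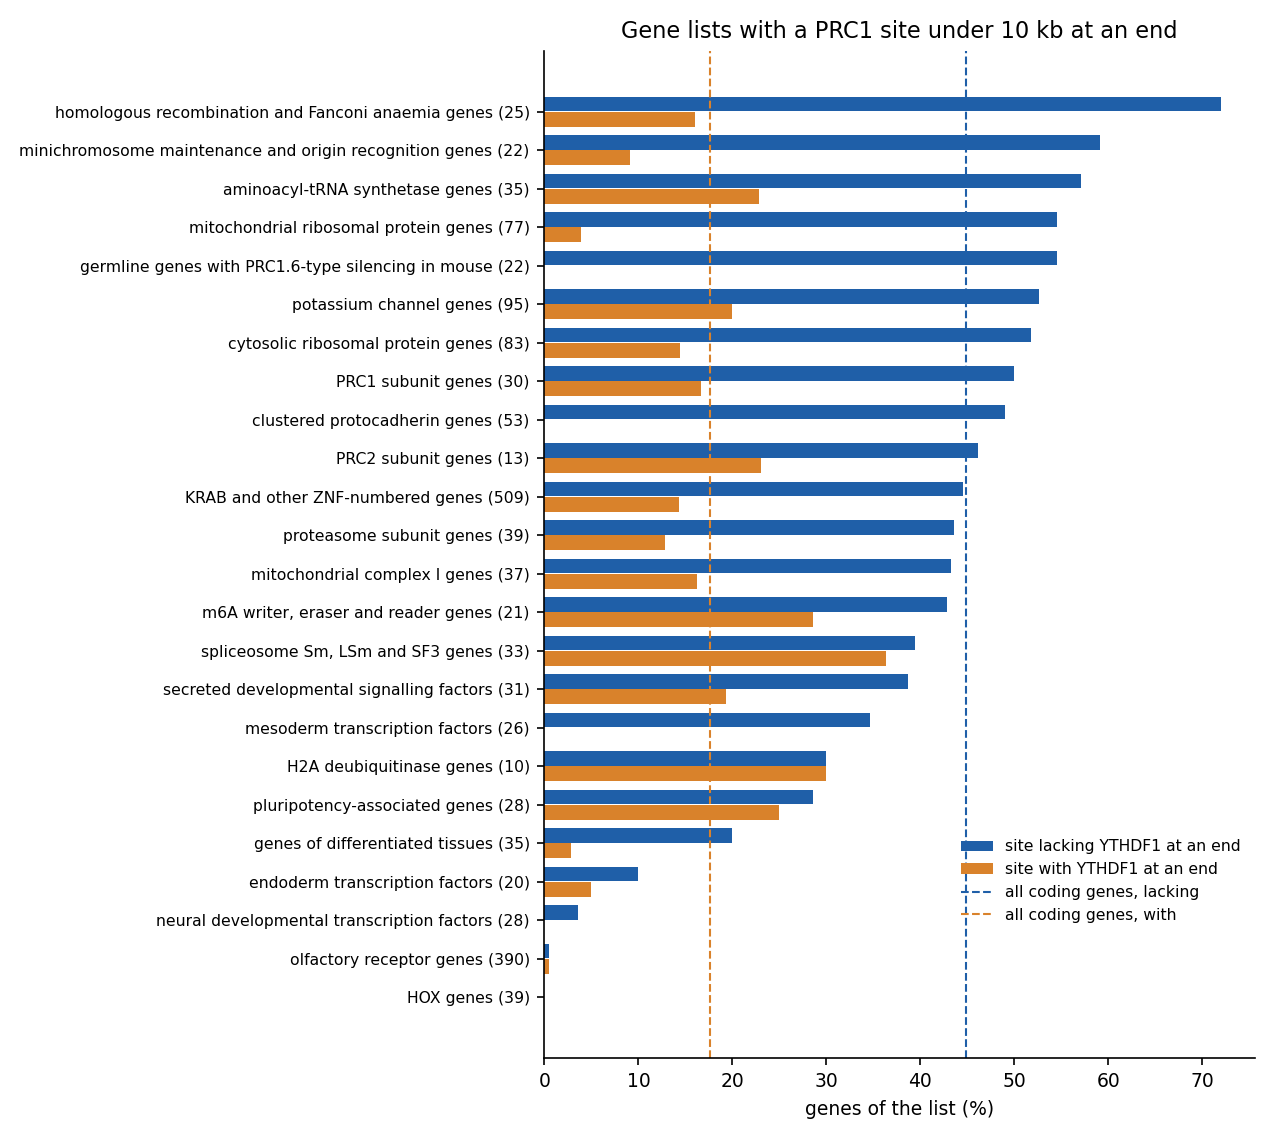
Percent of the genes of each list (number of genes in brackets) with a gene-end PRC1 site lacking YTHDF1 (blue, above) and with a gene-end PRC1 site carrying YTHDF1 (orange, below), beside the shares over all coding genes (dashed, 44.9% and 17.6%). Homologous recombination genes stand highest at 72%, and HOX genes at 0, all 39 of them with an RNF2 peak of 10 kb or more.

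By chromosome the share of gene-end PRC1 sites that lacked YTHDF1 ran from 67.4% on chromosome 16 to 82.4% on chromosome 13 among the autosomes, with a median of 74.8%. On the X chromosome 164 of 168 sites lacked it (97.6%, 94.0 to 99.3%), above each autosome's interval. YTHDF1 peaks were few there: 93 for 848 coding genes, which is 10.97 per 100 genes, against 109 to 405 on the autosomes. RNF2 peaks were fewer too, at 49.6 per 100 genes on X against 127 to 199 on the autosomes, as were members, at 19.3 against 32.2 to 49.7. H2AK119ub islands numbered 64.6 per 100 genes on X, against 160 to 338. The part of these lower numbers of peaks in the 97.6% was not tested. Without X and Y, 73.8% of gene-end PRC1 sites lacked YTHDF1.

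**Figure D4:**
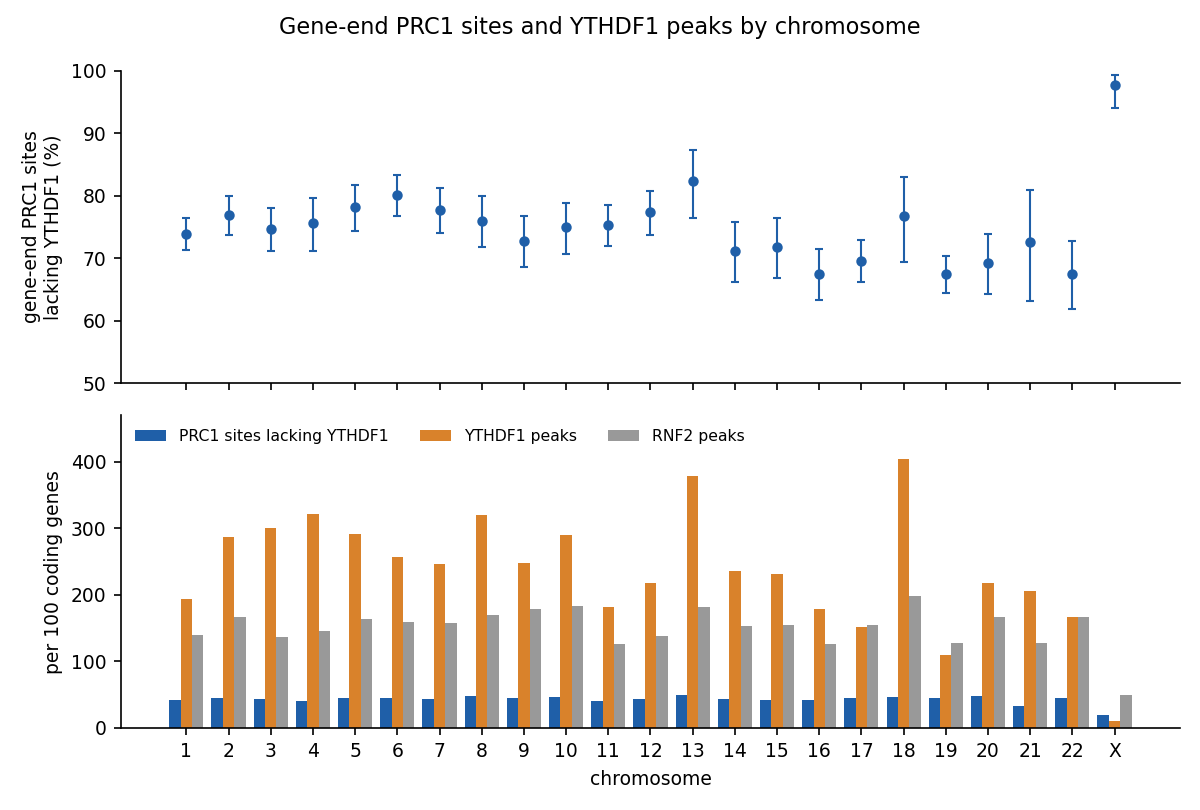
Top, percent of gene-end PRC1 sites lacking YTHDF1 on each chromosome with exact 95% binomial intervals (the axis starts at 50%). Bottom, members, wild-type YTHDF1 peaks and RNF2 peaks per 100 coding genes: X has 97.6% of sites lacking YTHDF1, 19.3 members and 10.97 YTHDF1 peaks per 100 genes.

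The knockdown YTHDF1 list, which the selection did not use, touched few members. Of the 226 peaks called in cells treated with YTHDF1 shRNA, 31 (13.7%, 9.51 to 18.9%) lay on a member and 40 (17.7%, 13.0 to 23.3%) on a gene-end site with YTHDF1. In the other direction 31 members (0.363%, 0.247 to 0.515%) carried a knockdown peak, against 41 sites with YTHDF1 (1.37%, 0.988 to 1.86%). Among gene-end peaks without H2AK119ub it was 3 of 656 (0.457%, 0.0944 to 1.33%), so a low share was not particular to the members. The members with such a peak and the strongest RNF2 were a pair of sites at TNFSF9, a ligand gene of the tumour necrosis factor family, with RNF2 of 23.2-fold and 13.1-fold and knockdown peaks of 3.80-fold and 6.85-fold. CCNA1, the germline cyclin A gene, had 13.6-fold RNF2 and a 4.63-fold knockdown peak, RAB4A 11.02-fold and 3.73-fold, and CRIP2 9.68-fold and 4.69-fold. The knockdown list began at a −log10 q of 4.01 and the wild-type list at 1.50, so the number of peaks in either also follows the authors' thresholds.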

How the data were processed

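Replicates were merged by the authors into 4 deposited peak lists on hg38. The tools named, per the submitters' processing notes, are SICER 1.1 and MACS2 2.1.0, SAMtools 1.3.1, Picard, Bowtie2 2.2.5 and Trimmomatic 0.35. The caller behind each list and its settings are not given in the sources used here. As deposited, RNF2 and YTHDF1 peaks carry a score (10 times the −log10 p, capped at 1000), the fold enrichment, −log10 p and −log10 q. The H2AK119ub list carries a deposited score of unstated scale, also capped at 1000, and its islands are multiples of 200 bp. These values are the authors' and were used only to describe, rank or filter peaks within a list.

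Overlaps (at least 1 bp), distances and counts were computed with Python 3.11.15, pandas 2.3.3, numpy 2.4.6 and scipy 1.17.1, and the overlap code was checked on simulated intervals. Gene ends came from a RefSeq gene table and starts, strands and sequences from a RefSeq promoter table, both GRCh38.p14. No genome sequence was used here. Shares by start or nearest end used sites where every coding gene with an end within 2 kb has a promoter entry. Other counts of starts inside peaks used every coding-gene entry. The 2 replicates per group are not separate in the lists, so there is no spread and no test; sites are not replicates of a condition, and intervals cover counting error only. Depth per library is unknown.

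The members and gene lists were chosen with earlier results of these data known, so they support nothing independently. Genes were named by rule: the 10 members with the highest RNF2 −log10 p, the 3 genes with the highest member RNF2 fold in each list, the genes of RNF2 and YTHDF1, the members at the edges of each limit, those in the longest islands, the weakest, and up to 5 on knockdown peaks. Other genes named with a list, and the genes named in the islands with most members, were added after their values had been seen. Genes were matched by symbol or synonym. A listed gene is counted but not reported here by name. Alternatives were distances of 500 bp and 5 kb, 50% of the RNF2 peak in the island, no YTHDF1 within 2 kb, YTHDF1 −log10 q of at least 4, the better-scoring 50% of RNF2 peaks, widths under 5 kb, autosomes alone, another reading of gene starts and another CpG limit.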

Additional observations from a re-analysis of the deposited data

How the results depend on the processing

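The number of members was 8545 and stayed within 1.5 times of that except with a distance of 500 bp, which gave 5539. The share of gene-end PRC1 sites lacking YTHDF1 (74.1%) became 73.0% with 500 bp, 75.9% with 5 kb, 67.0% when no YTHDF1 peak was allowed within 2 kb, 97.4% with YTHDF1 peaks of a −log10 q of at least 4, and 70.9% in the better-scoring 50% of RNF2 peaks. The share of coding genes with a member (44.9%) became 30.5% and 51.3% with 500 bp and 5 kb, 44.0% with 50% of the RNF2 peak in the island, 40.9% with no YTHDF1 within 2 kb, 57.7% with the −log10 q of at least 4, 33.0% in the better-scoring 50%, 42.7% under 5 kb in width and 46.1% on autosomes alone. The share of members over a start (81.25%) became 92.9% and 68.7% with 500 bp and 5 kb, 83.4% with no YTHDF1 within 2 kb, 83.2% with the −log10 q of at least 4, 90.4% in the better-scoring 50% and 90.1% when a start within 2 kb of the midpoint was enough. The share of CpG-rich promoters (83.0%) became 69.9% with observed over expected CpG of at least 0.75 and GC of at least 50%. The share of members on a knockdown YTHDF1 peak stayed between 0.307% and 0.463% in all 8 alternatives run for it. The settings change which sites are counted, and the cause of each shift was not tested further.

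No paired analysis was possible because the replicates are merged in each list, and leaving out replicates was not run for the same reason. Read depth per library is unknown, so a site lacking YTHDF1 is a site without a called peak, not one shown to be free of the protein.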

Other observations

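MicroRNA genes lay under some of the gene-end PRC1 sites lacking YTHDF1. Of 1562 hairpins in a RefSeq miRNA table, 52 lay in 48 of these 8545 sites, and 36 in the 2983 sites with YTHDF1. Per site, hairpins were thus less common at the members. The pair MIR34B and MIR34C, known as targets of p53, lay in an 11.01-fold RNF2 peak of 3.75 kb at the BTG4 gene (chr11:111512012-111515756). MIR4488 lay in a 13.6-fold peak at LRRC10B, MIR1258 in a 10.3-fold peak at ZNF385B and MIR378A in a 6.88-fold peak at PPARGC1B. These microRNAs were picked from the higher RNF2 folds with the values in view, and no test was run. Each site was chosen by its distance to a coding gene, so the hairpins lie near starts or ends of such genes by that choice.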
